A study of Mus musculus with 36 samples.

Results

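The genes described here are the solute carriers, the membrane proteins whose symbols begin with Slc and a family number. Members were taken from the array by symbol, without Slc7a11 and Slc10a1. This gave 280 genes in 50 families, carried by 325 probes, of 12394 genes with a symbol on the array. Where a gene had several probes, as 39 members did, the probe with the highest mean over the arrays that measured it was used. Brain measured 198 of the members, heart 173, kidney 227 and liver 170, and 115 were measured in all 4 tissues. A further 93 were measured in 2 or 3 tissues and 72 in 1. Symbols and family numbers chose the members and their groups.

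The series compared organs of mice given lipopolysaccharide and genipin, lipopolysaccharide alone, or nothing. Lipopolysaccharide (LPS) is a bacterial outer-membrane glycolipid that sets off systemic inflammation through Toll-like receptor 4, and genipin is an iridoid compound from gardenia fruit. All mice were female FVB transgenic mice that carry a luciferase reporter, 6 to 8 weeks old. LPS_Genipin mice received 4 mg/kg LPS intraperitoneally and genipin 10 minutes later, LPS mice received the same LPS alone, and Mock mice were left untreated. Tissues were taken 4 hours after treatment. The series description names genipin doses of 1, 10 and 100 mg/kg, and the dose of the mice behind the arrays is not given in the labels. The labels list no mice that received genipin without LPS. Each tissue has 3 LPS_Genipin, 3 LPS and 3 Mock arrays, 36 in all, of brain, heart, kidney and liver. Nothing in the labels says that the 3 arrays of a group are separate mice, so p-values measure the spread between these arrays only, which may be technical.

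Solute carriers move ions, metals, sugars, amino acids, vitamins, nucleotides and metabolic intermediates across the plasma membrane, the mitochondrial inner membrane and the membranes of vesicles and lysosomes. Families are numbered by protein sequence, and members of 1 family usually carry related substrates. In an acute-phase response the liver and macrophages change their handling of iron, zinc and amino acids, ferroportin (Slc40a1) being the only known cellular iron exporter. In kidney, carriers of the tubule reclaim glucose, phosphate and amino acids from the filtrate, and in brain they clear transmitters from synapses and load them into vesicles.

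Intensities ran from 9.46 to 65492 on a linear scale and share 1 distribution within a tissue, so values are compared within a tissue only. A gene was called when its limma adjusted p, over all genes of that tissue, was under 0.05. Differences below are on the log2 scale after values under 262.7, the 5th percentile, were raised to that floor. Where every array of a group lay at the floor or was saturated, the fold is a bound and is written "at least". Intensities show the amount of a transcript relative to the rest of the tissue's RNA, so fewer cells of a type and less RNA per cell cannot be told apart. The LPS arrays enter both the comparison of LPS with Mock and that of LPS_Genipin with LPS, so a gene that LPS arrays alone place high or low moves opposite ways in the pair.

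Arrays of a group correlated at r of 0.985 to 0.998, and none stood apart from its group. Markers of other cell types did differ between groups. In brain, the summed intensity of the 4 measured skeletal muscle markers of 6 listed was 3749 to 4086 in LPS_Genipin and 3416 to 3680 in LPS arrays, against 112506 to 118985 in Mock arrays. The 4 measured choroid plexus markers of 5 summed to 86314 to 92220 in LPS_Genipin and 11234 to 18275 in LPS brains, against 82078 to 82827 in Mock brains. With LPS, 2 of the 4 were called lower, Ttr and Kl (log2 differences of -4.46 and -0.75), and Folr1 and Enpp2 were not called. All 4 were called higher in LPS_Genipin than in LPS brains. In heart, the 2 measured atrial markers of 4, Myl7 and Myl4, summed to 3238 to 3322 in LPS_Genipin and 126373 to 130967 in LPS arrays, against 3983 to 4358 in Mock arrays. The 3 measured adipocyte markers of 6 summed to 17222 to 24770 in LPS_Genipin, 85686 to 97584 in LPS and 12592 to 17858 in Mock hearts. Of these, Adipoq and Cfd were called higher with LPS and lower in LPS_Genipin than in LPS hearts. Fabp4 was called in neither comparison (adjusted p = 0.223 and 0.989). Defining markers of the labelled tissues were measured: all 6 cardiomyocyte markers in heart, 5 of 6 hepatocyte markers in liver and all 7 proximal tubule markers in kidney. On all 9 arrays of their tissue 5 of the cardiomyocyte, 3 of the hepatocyte and 2 of the proximal tubule markers were saturated, so they show presence and cannot show a difference between groups.

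RefSeq promoter windows (GRCm38.p6) were at hand for 216 of the 280 members. The 4 printed here belong to genes with large changes described below, and were chosen after their values were seen: Slc19a2 and Slc9a3r2 were low in LPS livers, and Slc51b and Slc10a6 were high in LPS liver or heart. Each shows the 250 bases before the transcript start in the 5′ to 3′ direction of the gene. Capitals mark matches, on either strand, to the NF-kB-type letters, GGG and CC with 5 bases between them, or the AP-1 letters TGANTCA, which may overlap.
Slc19a2 (chr1:164248796-164249045, plus strand): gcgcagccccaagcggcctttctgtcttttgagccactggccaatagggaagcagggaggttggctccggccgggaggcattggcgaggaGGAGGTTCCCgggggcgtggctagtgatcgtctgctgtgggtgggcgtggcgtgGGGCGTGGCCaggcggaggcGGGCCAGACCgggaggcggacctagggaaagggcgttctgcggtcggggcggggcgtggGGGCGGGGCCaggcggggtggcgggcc
Slc9a3r2 (chr17:24650306-24650555, minus strand): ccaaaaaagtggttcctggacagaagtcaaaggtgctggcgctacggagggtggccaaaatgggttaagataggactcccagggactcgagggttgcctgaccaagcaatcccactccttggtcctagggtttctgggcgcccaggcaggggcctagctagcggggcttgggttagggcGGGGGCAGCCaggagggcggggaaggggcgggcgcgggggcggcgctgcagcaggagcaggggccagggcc
Slc51b (chr9:65422774-65423023, minus strand): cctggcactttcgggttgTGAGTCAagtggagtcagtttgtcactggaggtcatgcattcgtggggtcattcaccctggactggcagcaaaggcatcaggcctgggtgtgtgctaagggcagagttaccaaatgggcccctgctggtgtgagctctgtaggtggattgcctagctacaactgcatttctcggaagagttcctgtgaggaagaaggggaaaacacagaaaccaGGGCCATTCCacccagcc
Slc10a6 (chr5:103629404-103629653, minus strand): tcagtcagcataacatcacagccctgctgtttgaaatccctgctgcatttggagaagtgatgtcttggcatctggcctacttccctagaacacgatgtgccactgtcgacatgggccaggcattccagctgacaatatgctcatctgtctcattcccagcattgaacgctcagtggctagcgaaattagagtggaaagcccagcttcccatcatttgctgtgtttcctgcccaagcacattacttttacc
The Slc19a2 window held 4 matches to the NF-kB-type letters, and the printed Slc9a3r2 window 1. A further Slc9a3r2 window in the table (chr17:24644958-24645207, minus strand, not shown) held 2 matches to the NF-kB-type and 1 to the AP-1 letters. The Slc51b window held 1 match to each motif and the Slc10a6 window none. Across the 32851 windows of the table, 45.8% held the NF-kB-type letters and 6.75% the AP-1 letters, against 58.9% and 6.27% of the 287 member windows, so a match is common and is a description only. The remaining motif searched, the ATF4/CEBP-type TGATGNAA, occurred in 3.45% of all windows, in 2.79% of member windows and in none of the 4 printed. Of the members that differed the same way with LPS in all tissues, the windows of Slc15a2 and Slc38a9 held none of the 3 motifs and that of Slc22a23 held the NF-kB-type letters 2 times. No window was at hand for Slc15a3 and Slc40a1, which belong to the same set.

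The first question was which carriers differ after LPS alone. In brain 66 of 198 members were called, 36 higher and 30 lower, where 33.9% of all genes were called, 16.4% higher and 17.5% lower. Without Mock replicate 2 the brain count was 42. In heart 80 of 173 were called, 43 higher and 37 lower, against 47.3% of all genes (18.2% higher and 29.1% lower). In kidney 151 of 227 were called, 59 higher and 92 lower, against 64.4% (25.2% higher and 39.2% lower). In liver 126 of 170 were called, 61 higher and 65 lower, against 66.4% (29.3% higher and 37.1% lower). Members were thus called at 33.3% in brains, 46.2% in hearts, 66.5% in kidneys and 74.1% in livers, a share near that of all genes except in liver, where it was somewhat higher. The median log2 difference over the members lay near 0, with values of 0.03 for liver, -0.10 for kidney, 0.03 for heart and 0.00 for brain.

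Large changes were spread unevenly over tissues, among members as among all genes. Members called with a difference of at least 2-fold numbered 2 higher and 2 lower in brain, where all genes gave 1.62% higher and 0.759% lower. In heart they numbered 11 higher and 4 lower, against 4.81% and 2.34% of all genes. Kidney had 18 higher and 7 lower, against 5.38% and 3.06%, and liver 22 higher and 19 lower, against 8.06% and 7.69%.

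Genipin after LPS was set against LPS alone in the same way. In brain 64 of 198 members were called, 37 higher and 27 lower in LPS_Genipin arrays (30.2% of all genes called, 16.3% higher and 13.8% lower). In heart 88 of 173 were called, 35 higher and 53 lower (42.0%, with 22.1% higher and 19.9% lower). In kidney 130 of 227 were called, 61 higher and 69 lower (54.8%, with 32.1% higher and 22.6% lower). In liver 103 of 170 were called, 49 higher and 54 lower (54.1%, with 29.5% higher and 24.5% lower). Against Mock, LPS_Genipin arrays were called different in 28 members in brain (14.4% of all genes), 45 in heart (19.8%), 124 in kidney (44.5%) and 122 in liver (61.0%). Leaving out single arrays gave 15 to 21 in brain, lowest without Mock replicate 1 or 3, and 23 to 35 in heart, lowest without LPS_Genipin replicate 2, while array weights gave 63 in brain and 68 in heart.

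**Figure D1:**
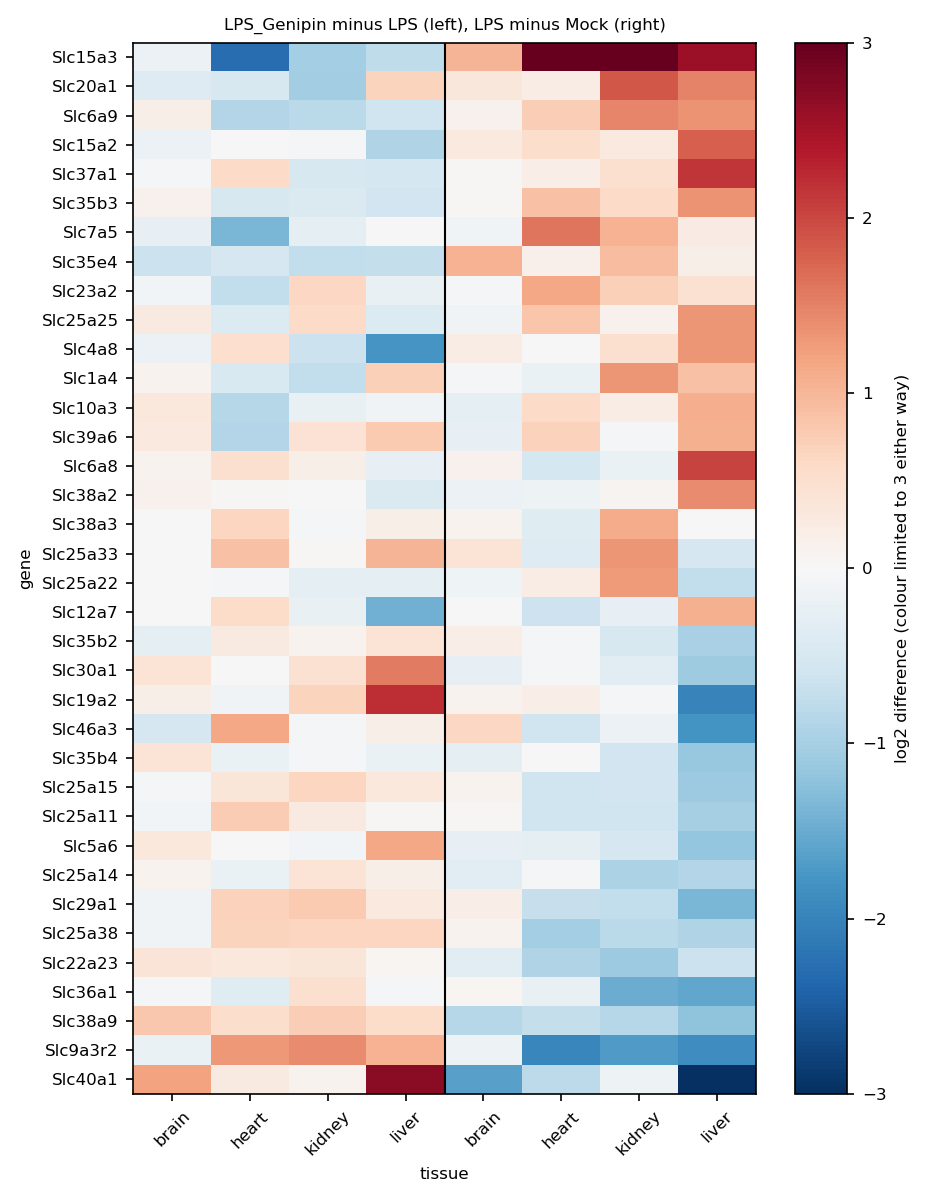
Log2 differences of 36 members measured in all 4 tissues, those with the largest LPS against Mock difference in any tissue, by gene (rows) and tissue (columns); the left panel shows LPS_Genipin minus LPS and the right panel LPS minus Mock. Slc40a1 is blue (lower) in all 4 tissues of the right panel and Slc15a3 red (higher) in all 4, and most other rows change colour between tissues.

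Few carriers moved the same way in all 4 tissues. Of the 115 measured in each, Slc15a2 and Slc15a3 were called higher with LPS in all 4, as were 3.70% of all genes. Slc22a23, Slc38a9 and Slc40a1 were called lower in all 4, as were 3.24% of all genes. By contrast 27 of the 115 were called higher in at least 1 tissue and lower in another, against 19.9% of all genes. A test of whether the LPS difference varies between tissues, the F test of the fit over all 36 arrays, was passed by 97 of the 115 members, against 77.0% of all genes. For LPS_Genipin against LPS it was passed by 88 (74.5% of all genes), and for LPS_Genipin against Mock by 90 (66.2%). The test treats arrays of different tissues as independent, and the labels do not say whether organs came from the same mice.

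Slc15a3, a lysosomal carrier of histidine and small peptides found mainly in macrophages and other immune cells, rose with LPS in every tissue. Kidney intensities were 4329, 4615 and 5135 in LPS_Genipin arrays and 9524, 9494 and 9559 in LPS arrays, against 464, 550.4 and 453 in Mock arrays. The 3 groups did not overlap, LPS_Genipin arrays lying between the others. The log2 difference was 4.29 (SE 0.086, adjusted p = 5.32e-09) for LPS against Mock, or 19.6-fold, and -1.02 (SE 0.086, adjusted p = 4.26e-05) for LPS_Genipin against LPS. In heart Slc15a3 read 2961, 3275 and 2939 in LPS_Genipin, 14872, 15767 and 13783 in LPS and 1217, 994 and 1077 in Mock arrays. The same order held in heart, with log2 differences of 3.76 (adjusted p = 2.32e-08) and -2.27 (adjusted p = 1.06e-06). Liver gave 2.57 (adjusted p = 2.25e-07) for LPS against Mock and -0.77 (adjusted p = 0.000439) for LPS_Genipin against LPS. In brain all 3 Mock arrays were at the floor, so the rise was at least 2.03-fold (adjusted p = 0.00161). With a floor at the 20th percentile the brain call was lost (adjusted p = 0.119). The difference between LPS_Genipin and LPS brains, -0.18 (adjusted p = 0.386), was not called. LPS_Genipin arrays stayed above Mock in all 4 tissues, as they did for Slc25a33, a mitochondrial pyrimidine nucleotide carrier, and for 1.49% of all genes. The Slc25a33 call in heart was lost without any 1 of the 6 arrays (adjusted p up to 0.0812, without LPS_Genipin replicate 2), and the Slc15a3 call in brain with the higher floor.

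Slc40a1, ferroportin, fell with LPS in every tissue, by very different amounts. Liver intensities were 32119, 32358 and 32651 in LPS_Genipin arrays and 4809, 5617 and 4613 in LPS arrays, against 43543, 42269 and 44574 in Mock arrays. LPS livers stood far below the other groups, which did not overlap either. The log2 difference was -3.12 (SE 0.073, adjusted p = 1.56e-08) for LPS against Mock, 8.7-fold lower, the largest fall of any member in any tissue. LPS_Genipin livers were 6.48-fold above LPS livers (2.70 (adjusted p = 2.8e-07) on the log2 scale) and below Mock livers (-0.42 (adjusted p = 0.0013)). In brain the arrays read 1744, 1903 and 1760 in LPS_Genipin, 726, 900.4 and 726 in LPS and 2335, 2443 and 2432 in Mock. The same order was seen there, with differences of -1.62 (adjusted p = 8.88e-06) for LPS against Mock and 1.21 (adjusted p = 7.1e-05) for LPS_Genipin against LPS. In heart the fall was -0.79 (adjusted p = 0.000675) and in kidney -0.16 (adjusted p = 0.0154), the last not called when all 36 arrays were fitted together (adjusted p = 0.123). LPS_Genipin against LPS gave 0.28 (adjusted p = 0.0804) in heart and 0.11 (adjusted p = 0.0726) in kidney, neither called. Microglial markers fell with LPS in brain as well (5 of 5 called lower, and 5 of 5 higher in LPS_Genipin than in LPS), summing to 21288 to 22234 in LPS_Genipin and 11956 to 14722 in LPS brains, against 23766 to 25190 in Mock brains. Of the 5 measured monocyte and macrophage markers in liver, 1 was called higher and 3 lower with LPS, and they summed to 16782 to 17714 in LPS_Genipin, 12990 to 14036 in LPS and 17640 to 18753 in Mock livers. Their part in the Slc40a1 result was not tested.

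**Figure D2:**
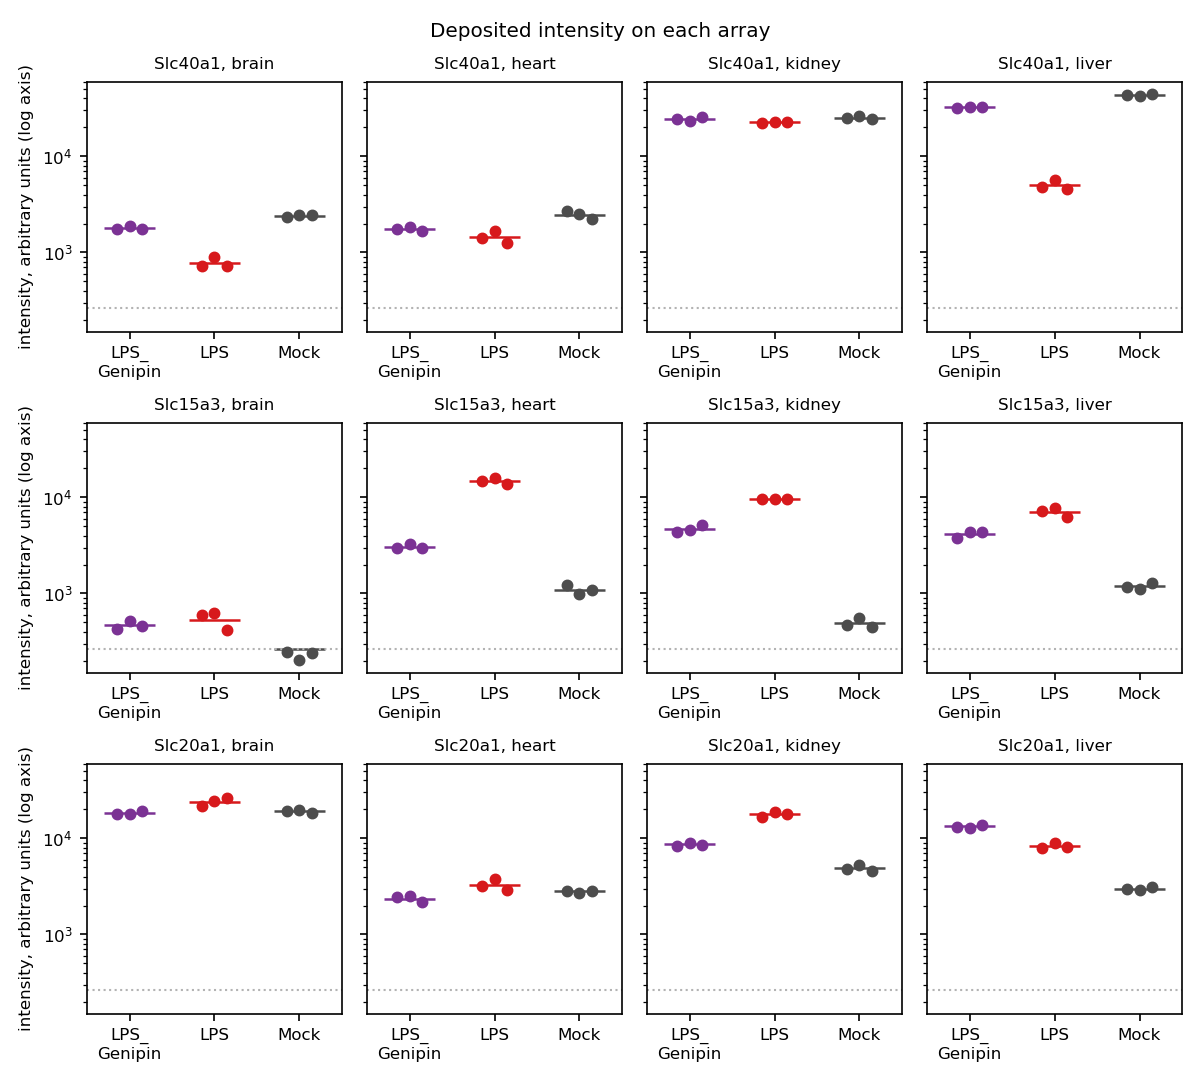
Intensity of Slc40a1, Slc15a3 and Slc20a1 (rows) on each array of the 4 tissues (columns), log axis; points are arrays, bars the mean of 3 arrays, and the dotted line is the floor of 262.7. LPS livers lie between 4613 and 5617 for Slc40a1, below the LPS_Genipin and Mock livers, and Slc15a3 is highest in the LPS arrays of heart, kidney and liver.

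The remaining carriers of that set moved less. Slc15a2, a proton-coupled peptide carrier of the Slc15 family, differed by 1.79 (SE 0.061) in liver and by 0.52, 0.28 and 0.29 (adjusted p = 0.0409) in heart, kidney and brain. The brain call was lost without any 1 of the Mock arrays or of LPS replicates 2 and 3 (adjusted p up to 0.126, without Mock replicate 1). LPS_Genipin livers were lower than LPS livers (-0.90 (adjusted p = 1.45e-05)), and the other 3 tissues gave no call for it. Slc22a23, an organic ion carrier family member without a settled substrate, fell by 1.09 in kidney, 0.91 in heart, 0.66 in liver and 0.35 in brain on the log2 scale. It was higher in LPS_Genipin than in LPS arrays of brain (0.38), heart (0.32) and kidney (0.37), and the liver difference was 0.05 (adjusted p = 0.542). Slc38a9, the lysosomal arginine sensor of the mTORC1 pathway, gave -0.84, -0.70, -0.86 and -1.21 for brain, heart, kidney and liver. It was the 1 member called higher in LPS_Genipin than in LPS arrays of all 4 tissues, at 0.81, 0.52, 0.74 and 0.55 in the same order, as were 1.06% of all genes. A second, dimmer Slc38a9 probe moved the opposite way with LPS in heart (0.36), kidney (0.84) and liver (0.45), and for LPS_Genipin against LPS in the same tissues (-0.44, -0.90 and -0.53), so the gene's direction there rests on the brighter probe. With the mean of both probes the calls in heart and kidney were lost (adjusted p = 0.113 and 0.937). Slc10a4, a vesicular carrier related to the bile acid family, and Slc35c2 of the nucleotide sugar family were called lower in LPS_Genipin than in LPS arrays of all 4 tissues (1.70% of all genes), though the Slc10a4 call in brain was lost with a floor at the 20th percentile (adjusted p = 0.119) and without LPS replicate 3 or LPS_Genipin replicate 2, and its other probe moved the opposite way in heart (0.40, against -0.40 by the brighter probe).

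Liver held the largest changes among metal and vitamin carriers. Of 24 measured metal carriers, 13 were called higher and 5 lower with LPS, against 29.3% and 37.1% of all genes, with a median log2 difference of 0.42 against -0.03 for all genes. Of 7 carriers of vitamins and haem, none was called higher and 5 were called lower, with a median of -0.77. In LPS_Genipin livers 3 metal carriers were higher and 7 lower than in LPS livers, and 4 of the vitamin and haem carriers were higher and none lower, where 29.5% of all genes were higher and 24.5% lower.

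Slc41a2, a magnesium carrier, rose most among the metal carriers. Its intensities were 3334, 3377 and 3702 in LPS_Genipin livers and 7594, 7201 and 6747 in LPS livers, against 725, 656 and 685 in Mock livers. No LPS array came within the range of another group, and LPS_Genipin livers were intermediate. LPS exceeded Mock by 10.4-fold (3.38 (SE 0.067, adjusted p = 7.03e-09)), and LPS_Genipin was below LPS by 2.07-fold (-1.05 (adjusted p = 1.09e-05)). In kidney Slc41a2 rose by 1.37 (adjusted p = 1.17e-06). Slc39a14, the zinc and iron importer ZIP14 that is induced in acute-phase liver, read 1233, 1326 and 1344 in LPS_Genipin, 2095, 1925 and 1903 in LPS and 775, 754 and 775 in Mock livers. The groups were again fully separate, with differences of 1.36 (adjusted p = 3e-07) and -0.60 (adjusted p = 7.24e-05). Slc39a14 also rose with LPS in heart (0.82) and kidney (1.12). Slc11a2 (DMT1), the ferrous iron importer, rose by 0.93 (adjusted p = 0.000282) in liver and was not called between LPS_Genipin and LPS (0.18 (adjusted p = 0.249)). Slc30a10, a manganese exporter, rose by 0.83 (adjusted p = 0.00136).

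Other metal carriers of liver fell. Slc30a1, the plasma membrane zinc exporter, read 2511, 2671 and 2905 in LPS_Genipin livers, 1058, 839 and 866 in LPS livers and 1843, 1808 and 2115 in Mock livers. LPS livers were lowest, with differences of -1.07 (adjusted p = 5.26e-05) for LPS against Mock and 1.55 (adjusted p = 1.56e-05) for LPS_Genipin against LPS. Whether LPS_Genipin livers lay above Mock depends on the probe: this one gave 0.49 (adjusted p = 0.00443), its other probe -0.31, and the mean of both was not called (adjusted p = 0.329). Slc39a8 (ZIP8), which imports zinc and manganese, fell by 0.78 in liver (adjusted p = 0.000189) and Slc31a1, the copper importer, by 0.40 (adjusted p = 0.000134). Between LPS_Genipin and LPS livers, Slc39a8 differed by -0.02 (adjusted p = 0.874), and Slc31a1 by -0.29 (adjusted p = 0.00144).

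Slc19a2, the high-affinity thiamine carrier, had the smallest tissue-difference p of any member. Liver arrays read 10997, 10618 and 11053 in LPS_Genipin and 2254, 2583 and 2209 in LPS, against 9283, 9283 and 9651 in Mock. LPS livers alone were low. The difference was -2.00 (SE 0.064, adjusted p = 8.36e-08) for LPS against Mock and 2.22 (SE 0.064, adjusted p = 2.8e-07) for LPS_Genipin against LPS, and LPS_Genipin livers were slightly above Mock (0.21 (adjusted p = 0.0214), a call lost without any 1 of Mock replicates 1 and 2 or LPS_Genipin replicates 1 and 3, with an adjusted p of up to 0.062). The LPS difference was 0.10 in brain, 0.21 in heart and -0.07 in kidney, none called, and the F test of the difference between tissues gave an adjusted p of 8.47e-19. Slc48a1, which exports haem from lysosomes, read 3458, 3327 and 2859 in LPS_Genipin, 811, 805 and 636 in LPS and 1288, 1341 and 1201 in Mock livers. LPS_Genipin livers were the highest of the 3 groups, 4.3-fold above LPS (2.10 (adjusted p = 4.75e-06)) and above Mock by 1.33 on the log2 scale. Slc46a3, a lysosomal carrier that has been linked to hepatic copper, fell by 1.80 (adjusted p = 3.33e-08) and remained low in LPS_Genipin livers, at -1.63 (adjusted p = 1.1e-07) against Mock.

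**Figure D3:**
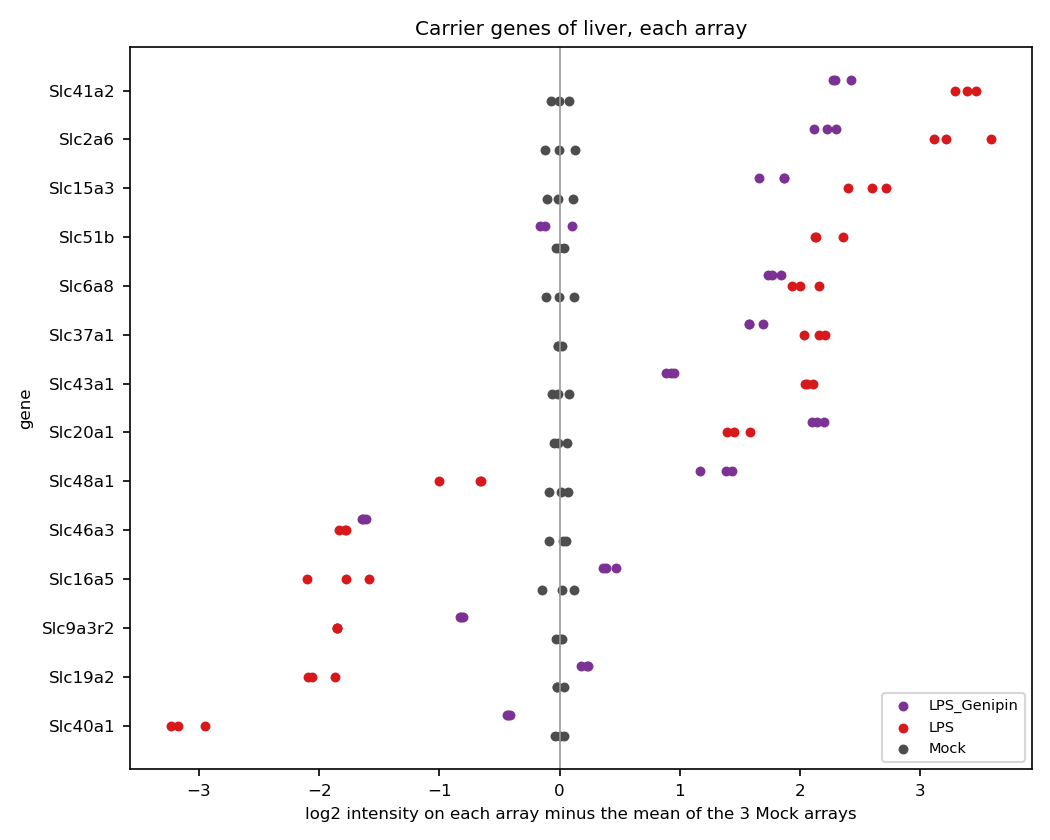
Log2 difference of each liver array from the mean of the 3 Mock livers for 14 members (rows); points are arrays, coloured by group. Slc41a2 and Slc2a6 lie furthest right in the LPS livers, Slc40a1 and Slc19a2 furthest left, and the LPS_Genipin livers of Slc51b and Slc19a2 lie near the Mock livers.

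Mitochondrial carriers of the Slc25 family were mostly lower in LPS livers. Of 28 measured, 6 were called higher and 18 lower, and their median log2 difference was -0.54 against -0.03 for all liver genes. All liver genes gave 29.3% higher and 37.1% lower. In heart 6 of 27 were higher and 9 lower, near the 18.2% and 29.1% of all genes, and in brain 3 of 30 were higher and 1 lower, against 16.4% and 17.5%. The carriers furthest down in liver were Slc25a13, the aspartate-glutamate carrier citrin, at -1.20 (adjusted p = 3.86e-06), and Slc25a15, the ornithine carrier, at -1.08 (adjusted p = 4.68e-07), both of which serve the urea cycle. Slc25a20, the carnitine-acylcarnitine carrier of fatty acid oxidation, fell by 0.58 (adjusted p = 0.000279). Slc25a32, which takes folate into mitochondria, read 814, 791 and 913 in LPS_Genipin, 430.4, 394 and 346 in LPS and 810.3, 806 and 845 in Mock livers. For it LPS_Genipin and Mock overlapped, while citrin stayed low, at 5096, 5055 and 5282 in LPS_Genipin, 4296, 5036 and 4185 in LPS and 10169, 9860 and 10870 in Mock livers. Over the 28 carriers LPS_Genipin against LPS gave 8 higher and 5 lower, with a median of 0.10, where all genes gave 29.5% higher and 24.5% lower. Slc25a25, a calcium-regulated ATP-Mg and phosphate carrier, moved the other way, at 9309, 8552 and 8202 in LPS_Genipin, 12178, 10924 and 11623 in LPS and 4922, 4623 and 4380 in Mock livers. Its difference was 1.32 (adjusted p = 1.39e-06) for LPS against Mock and -0.41 (adjusted p = 0.00176) for LPS_Genipin against LPS. Slc25a3, Slc25a4 and Slc25a39, abundant members, were saturated in some tissues, which limits what their values show.

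Amino acid and sugar carriers of liver went in both directions. Of 21 amino acid and peptide carriers, 10 were called higher and 4 lower with LPS, and in LPS_Genipin against LPS 4 were higher and 9 lower. All liver genes gave 29.3% higher and 37.1% lower for LPS against Mock, and 29.5% and 24.5% for LPS_Genipin against LPS. Slc43a1, a carrier of large neutral amino acids, read 1210, 1192 and 1158 in LPS_Genipin, 2585, 2612 and 2700 in LPS and 662, 619 and 598 in Mock livers. The groups were separate, with LPS highest (2.07 (adjusted p = 2.01e-08) against Mock). Slc38a2 (SNAT2), which takes up small neutral amino acids, rose by 1.43 (adjusted p = 1.01e-06) and was lower in LPS_Genipin than in LPS livers (-0.44 (adjusted p = 0.00147)). Slc7a2, a cationic amino acid carrier that supplies arginine, differed by -0.24 (adjusted p = 0.0407) by its brighter probe and by 0.49 in the opposite direction by its other probe, so its direction in liver is uncertain; the call was also lost without Mock replicate 1 or 2 or LPS replicate 1 or 3 (adjusted p up to 0.13). Among 9 sugar carriers 2 were called higher and 5 lower with LPS. Slc2a6, a lysosomal hexose carrier of myeloid cells, read 1410, 1337 and 1237 in LPS_Genipin, 2481, 2659 and 3440 in LPS and 284, 248 and 312 in Mock livers. That was 9.91-fold higher with LPS (adjusted p = 2.04e-07) and 2.13-fold lower with genipin after LPS (adjusted p = 0.000239). Neutrophil markers moved beside it: the 2 measured of 6, S100a8 and S100a9, summed to 57212 to 62162 in LPS_Genipin and 80909 to 86197 in LPS livers, against 3598 to 3856 in Mock livers, and their part was not tested.

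Glucose carriers of liver differed from each other. Slc2a2 (GLUT2), the main glucose carrier of hepatocytes, read 3767, 3647 and 4341 in LPS_Genipin, 2951, 3106 and 2704 in LPS and 6206, 5775 and 6533 in Mock livers. LPS livers were lowest (-1.08 (adjusted p = 1.36e-05)), and LPS_Genipin livers lay between (0.42 (adjusted p = 0.00422) against LPS). Slc2a1 (GLUT1) read 1750, 1804 and 1673 in LPS_Genipin, 894, 679.9 and 643 in LPS and 644, 688 and 625 in Mock livers. Only LPS_Genipin livers were high, at 1.25 (adjusted p = 7.66e-05) against LPS, while LPS against Mock was not called (0.17 (adjusted p = 0.241)). Slc37a1, an endoplasmic reticulum sugar-phosphate exchanger, rose by 2.14 (adjusted p = 3.58e-08) with LPS.

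Several organic solute carriers of liver were high or low in LPS arrays alone. Slc51b, the beta subunit of the bile acid and steroid exporter OST, read 1284, 1063 and 1095 in LPS_Genipin and 5206, 5231 and 6119 in LPS, against 1169, 1223 and 1186 in Mock livers. LPS_Genipin and Mock livers overlapped and differed by -0.06 (adjusted p = 0.596). LPS livers were above Mock by 4.62-fold (2.21 (SE 0.09, adjusted p = 2.99e-07)) and LPS_Genipin below LPS by -2.27 (SE 0.09, adjusted p = 1.04e-06). Kidney gave the same pattern for it, at 10924, 9978 and 10325 in LPS_Genipin, 24103, 26530 and 26315 in LPS and 10286, 11229 and 10779 in Mock arrays. Its kidney differences were 1.25 (adjusted p = 6.71e-07) and -1.30 (adjusted p = 1.8e-06). Slc16a5, a monocarboxylate carrier family member, read 1515, 1537 and 1636 in LPS_Genipin, 393, 344 and 276 in LPS and 1066, 1282 and 1199 in Mock livers. It was low in LPS livers alone, by -1.82 (adjusted p = 6.62e-06) against Mock and 2.22 (adjusted p = 6.88e-06) for LPS_Genipin against LPS. Slc35d2, a Golgi nucleotide sugar carrier, showed the same order, with -1.26 (adjusted p = 3.3e-07) for LPS against Mock and 1.75 (adjusted p = 3.22e-07) for LPS_Genipin against LPS. Slc29a1 (ENT1), a nucleoside carrier, fell by 1.37 (adjusted p = 5.49e-05) and was not called between LPS_Genipin and LPS (0.30 (adjusted p = 0.1)).

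Slc6a6 and Slc12a7 showed liver patterns of their own. Slc6a6, the taurine carrier, read 1861, 1714 and 1972 in LPS_Genipin, 6654, 6236 and 5710 in LPS and 3336, 3394 and 3482 in Mock livers. LPS livers were highest and LPS_Genipin livers lowest, -1.74 (adjusted p = 1.32e-06) against LPS and -0.88 (adjusted p = 2.22e-05) against Mock. Slc12a7, a potassium-chloride cotransporter, read 1307, 1402 and 1365 in LPS_Genipin, 3764, 3712 and 3567 in LPS and 1586, 1803 and 1940 in Mock livers, the same order, with 1.06 (adjusted p = 7.06e-06) and -1.44 (adjusted p = 4e-06). In heart both went the other way with LPS: Slc6a6 fell by 0.42 and Slc12a7 by 0.63. Slc6a8, the creatine carrier, rose in liver (2.03 (adjusted p = 2.42e-07)) and fell in heart by 0.54. It remained high in LPS_Genipin livers, at 1.78 (adjusted p = 9.44e-07) against Mock.

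Slc20a1 (PiT1), a sodium-phosphate carrier of most cells, rose with LPS in liver, kidney and brain. Liver arrays read 13233, 12875 and 13819 in LPS_Genipin and 7863, 9007 and 8217 in LPS, against 2968, 2909 and 3125 in Mock. LPS_Genipin livers were the highest, 0.67 (adjusted p = 7.4e-05) above LPS on the log2 scale. In kidney the arrays read 8370, 9031 and 8499 in LPS_Genipin, 16760, 18681 and 17852 in LPS and 4763, 5302 and 4579 in Mock. There LPS was highest, and LPS_Genipin was lower than LPS (-1.04 (adjusted p = 1.08e-05)), as it was in brain (-0.39) and heart (-0.48). Its rise with LPS was 0.34 (adjusted p = 0.0139) in brain, a call lost without Mock replicate 3 (adjusted p = 0.0552).

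**Figure D4:**
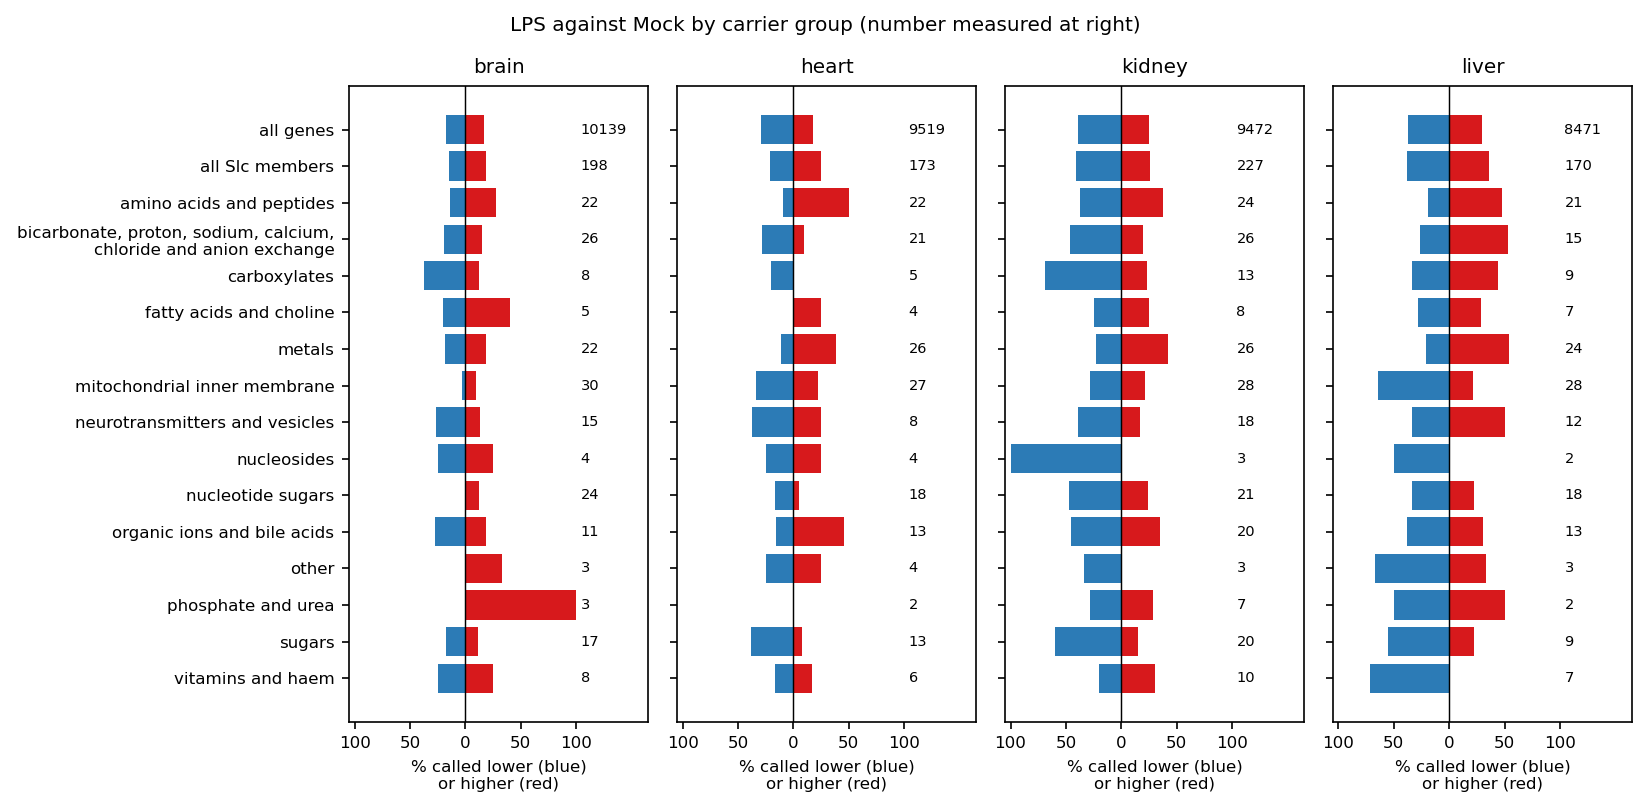
Percent of measured members of each carrier group called higher (red, right) or lower (blue, left) in LPS than in Mock arrays, by tissue, with the number measured at the right; all genes and all members are at the top. Liver mitochondrial carriers lean to lower, with 18 of 28, and heart amino acid carriers to higher, with 11 of 22.

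In heart, more metal and amino acid carriers were called higher than lower with LPS, where 18.2% of all genes were called higher and 29.1% lower. Of 26 metal carriers 10 were called higher and 3 lower, with a median of 0.21 against -0.06 for all genes, and of 22 amino acid and peptide carriers 11 higher and 2 lower, with a median of 0.39. The amino acid group follows family numbers and also holds Slc43a3, a purine nucleobase carrier. Slc43a3 read 11310, 11329 and 11113 in LPS and 7366, 6382 and 6248 in Mock hearts. LPS_Genipin against LPS gave 2 higher and 11 lower among the metal carriers and 4 higher and 10 lower among the amino acid carriers, against 22.1% and 19.9% of all genes. The heart markers of atrium and, apart from Fabp4, of adipocytes given above and the 3 measured neutrophil markers of 6 moved beside these groups. The neutrophil sum was 16747 to 18012 in LPS_Genipin and 39892 to 45109 in LPS hearts, against 2284 to 2488 in Mock hearts, and the part of these markers was not tested.

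Slc39a8 (ZIP8) read 805, 849 and 866 in LPS_Genipin hearts and 3531, 3506 and 2990 in LPS hearts, against 406, 333 and 391 in Mock hearts. LPS hearts were far above both, by 8.88-fold over Mock (3.15 (SE 0.096, adjusted p = 8.87e-08)), with -1.99 (adjusted p = 2.8e-06) for LPS_Genipin against LPS. Slc1a3 (EAAT1), a glutamate and aspartate carrier, read 389.6, 452 and 420.3 in LPS_Genipin, 2669, 2704 and 2545 in LPS and 449.9, 433 and 458 in Mock hearts. LPS_Genipin and Mock hearts overlapped, and only LPS hearts were high, at 2.56 (adjusted p = 3.51e-08) against Mock and -2.65 (adjusted p = 8e-08) for LPS_Genipin against LPS. Slc10a6, a sodium-dependent carrier of sulfated steroids, read 4330, 4773 and 4755 in LPS_Genipin, 11124, 12559 and 10823 in LPS and 1341, 1145 and 970.1 in Mock hearts. It rose 10.1-fold with LPS (adjusted p = 2.16e-07), and LPS_Genipin hearts stayed above Mock (2.01 (adjusted p = 2.15e-05)).

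The glutamine carrier Slc1a5 and the subunits of the large neutral amino acid exchanger, Slc7a5 and Slc3a2, rose together in heart. Slc1a5 differed by 1.56 (adjusted p = 1.12e-07), Slc7a5 by 1.60 (adjusted p = 1.16e-05) and Slc3a2 by 0.80 (adjusted p = 0.000485). Each was lower in LPS_Genipin than in LPS hearts, by -1.05, -1.36 and -0.48 in the same order. Slc7a7, which exports cationic amino acids together with Slc3a2, rose by 1.49 (adjusted p = 8.28e-05). In liver Slc7a5 was at the floor in all Mock arrays and was not called (adjusted p = 0.055), and Slc3a2 rose by 0.47 (adjusted p = 0.036), a call lost without Mock replicate 3 (adjusted p = 0.104) or LPS replicate 3.

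The insulin-responsive glucose carrier Slc2a4 (GLUT4) fell in heart. It read 10870, 10167 and 9173 in LPS_Genipin, 5845, 6386 and 5796 in LPS and 10282, 8851 and 9280 in Mock hearts, and LPS hearts alone were low (-0.66 (adjusted p = 0.000434) against Mock and 0.74 (adjusted p = 0.000292) for LPS_Genipin against LPS). Slc2a1 rose by 0.77 (adjusted p = 9.13e-05). Of 13 sugar carriers in heart 1 was called higher, Slc2a1, and 5 lower (18.2% and 29.1% of all genes). Mitochondrial Slc25a13 fell by 0.83 in heart (adjusted p = 1.6e-05) and Slc25a20 by 0.51 (adjusted p = 0.0249, and up to 0.0796 without 1 of Mock replicates 2 and 3 or LPS replicates 1 and 2). Slc25a38, a glycine carrier needed for haem synthesis, fell by 1.02 (adjusted p = 0.000159). All 3 were higher in LPS_Genipin than in LPS hearts, at 0.94, 0.70 and 0.66 in that order. Slc46a3 was high in LPS_Genipin hearts alone, at 5285, 5311 and 4929 in LPS_Genipin, 2255, 2508 and 2157 in LPS and 2959, 3812 and 3796 in Mock hearts.

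Slc9a3r2 and Slc9a3r1 carry carrier symbols and encode the scaffold proteins NHERF2 and NHERF1, which hold exchangers and channels at the membrane. Slc9a3r2 read 5458, 6265 and 6232 in LPS_Genipin, 2359, 2484 and 2417 in LPS and 9556, 8743 and 9790 in Mock hearts. LPS hearts were lowest and did not reach the other groups (-1.95 (adjusted p = 2.79e-07) and 1.30 (adjusted p = 6.04e-06)). In kidney it read 4205, 4627 and 4756 in LPS_Genipin, 1698, 1761 and 1602 in LPS and 5540, 5757 and 5080 in Mock arrays, with -1.69 (adjusted p = 3.17e-07) and 1.42 (adjusted p = 2.45e-06). All LPS livers were at the floor, so the liver fall was at least 3.61-fold and the LPS_Genipin level at least 2.05-fold above LPS. In brain it was not called between LPS and Mock (-0.15 (adjusted p = 0.116)). It was the 1 member called lower in LPS_Genipin than in Mock arrays of all 4 tissues, against 0.418% of all genes, and the brain call was lost without Mock replicate 1 (adjusted p = 0.0506). Slc9a3r1 moved the other way in heart, rising by 1.82 (adjusted p = 4.21e-06).

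In kidney 25.2% of all genes were called higher and 39.2% lower with LPS, and the 59 members higher and 92 lower of 227 were near those shares. Of 20 sugar carriers 3 were called higher and 12 lower, and of 13 carboxylate carriers 3 higher and 9 lower. Of 26 members of the ion exchange families 5 were called higher and 12 lower. The Slc2 glucose and polyol family had 0 of 7 higher and 5 lower, with a median log2 difference of -0.71 against -0.09 for all kidney genes. The sugar group follows family numbers and also holds Slc5 carriers of iodide, vitamins, choline and monocarboxylates. The ion exchange group follows them too, and also holds Slc12 cotransporters and the scaffold gene Slc9a3r2. Proximal tubule markers summed to 251662 to 262222 in LPS_Genipin and 268938 to 270762 in LPS kidneys, against 271378 to 304363 in Mock kidneys, with 0 of 7 called higher and 1 lower between LPS and Mock and 2 of them saturated. Among these markers Slc34a1, Slc5a2 and Slc22a6 are members themselves, and the 1 called lower was Slc5a2. The marker list is therefore not independent of the carrier results. Markers of other cells moved in kidney. The 1 measured neutrophil marker of 6, S100a9, read 4481 to 4504 in LPS_Genipin and 4372 to 6317 in LPS kidneys, against 248 to 363 in Mock kidneys. The 3 measured hepatocyte markers of 6 summed to 7811 to 9099 in LPS_Genipin and 3045 to 3431 in LPS kidneys, against 1528 to 1630 in Mock kidneys. The 2 measured skeletal muscle markers of 6 summed to 3691 to 3881 in LPS_Genipin and 943 to 1049 in LPS kidneys, against 750 to 906 in Mock kidneys. With LPS, Mylpf of these was called lower (-0.32) and Tnnc2 higher (0.92). Of 6 adipocyte markers 4 were measured. They summed to 57241 to 63977 in LPS_Genipin, 38989 to 43032 in LPS and 30497 to 32183 in Mock kidneys. Of 4 red blood cell markers 2 were measured, Alas2 and the member Slc4a1. Their sums, in the same order, were 6504 to 6924, 8168 to 8800 and 12501 to 13345. The part of these markers in the kidney results was not tested.

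Carriers that reclaim filtered solutes differed in direction. Slc5a1 (SGLT1), the late proximal sodium-glucose cotransporter, read 5946, 6789 and 6101 in LPS_Genipin and 14036, 14639 and 13847 in LPS, against 6610, 7065 and 6012 in Mock kidneys. LPS kidneys alone were high, by 2.16-fold over Mock (1.11 (SE 0.072, adjusted p = 5.01e-06)), and LPS_Genipin and Mock kidneys overlapped (-0.06 (adjusted p = 0.513)). Slc5a2 (SGLT2), the early proximal cotransporter, fell by 0.31 (adjusted p = 0.00622), and Slc2a2 by 0.71 (adjusted p = 9.76e-05). Slc6a19, the main luminal carrier of neutral amino acids, read 15910, 13985 and 13550 in LPS_Genipin, 6486, 6462 and 6749 in LPS and 14679, 17445 and 17083 in Mock kidneys. LPS kidneys alone were low (-1.32 (adjusted p = 4.09e-06)), and LPS_Genipin was 2.2-fold above LPS. The proton-coupled amino acid carrier Slc36a1 fell by 1.49 (adjusted p = 4.15e-07) by its brighter probe, while its other probe gave 0.27, so its direction is uncertain.

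Phosphate carriers of kidney were partly beyond the range of the scanner. Slc34a1, the main sodium-phosphate cotransporter of the proximal tubule, and Slc12a1, the cotransporter of the loop of Henle, were saturated on all 9 kidney arrays, so no difference can be given. Slc34a2, the related cotransporter of lung and intestine, read 639, 666 and 619 in LPS_Genipin, 2576, 2373 and 2595 in LPS and 598, 637 and 584 in Mock kidneys. LPS kidneys alone were high, at 2.05 (SE 0.053, adjusted p = 2.52e-08) against Mock and -1.97 (SE 0.053, adjusted p = 2.33e-07) for LPS_Genipin against LPS. Slc12a3, the thiazide-sensitive cotransporter, was not called with LPS (0.01 (adjusted p = 0.822)) and was slightly higher in LPS_Genipin than in LPS kidneys (0.16 (adjusted p = 0.0115)).

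**Figure D5:**
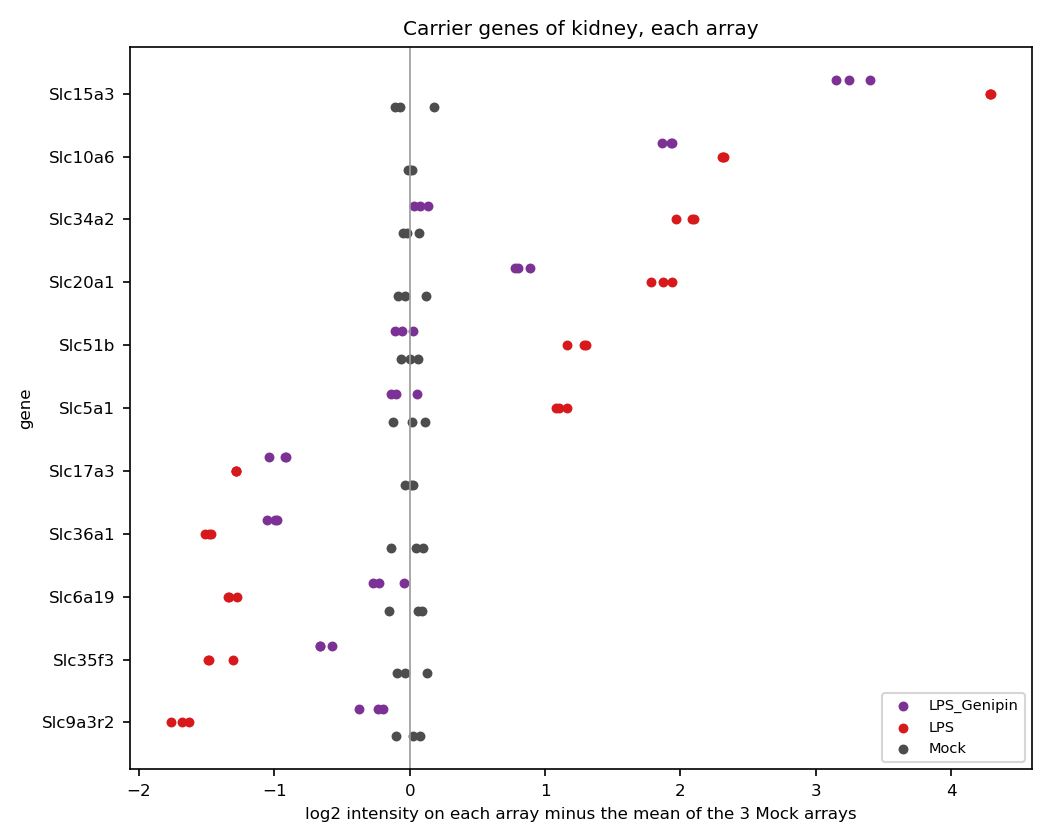
Log2 difference of each kidney array from the mean of the 3 Mock kidneys for 11 members (rows); points are arrays, coloured by group. Slc15a3 lies furthest right in LPS kidneys, and for Slc34a2, Slc51b and Slc5a1 the LPS_Genipin kidneys lie near the Mock kidneys.

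Other kidney carriers rose with LPS and stayed high with genipin. Slc10a6 read 1587, 1594 and 1514 in LPS_Genipin, 2072, 2078 and 2059 in LPS and 416, 411 and 419.7 in Mock kidneys. Its difference was 2.32 (adjusted p = 9.32e-10) for LPS against Mock and -0.40 (adjusted p = 3.65e-05) for LPS_Genipin against LPS. Slc43a3, a purine nucleobase carrier, read 6785, 6919 and 6947 in LPS_Genipin, 6661, 7009 and 7013 in LPS and 2537, 2890 and 2757 in Mock kidneys. LPS_Genipin and LPS overlapped fully (-0.00 (adjusted p = 0.99)), well above Mock (1.34 (adjusted p = 2.69e-07)). Slc25a33 behaved likewise, at 1.34 (adjusted p = 8.79e-07) for LPS against Mock and 0.03 (adjusted p = 0.693) for LPS_Genipin against LPS. Slc25a22, a mitochondrial glutamate carrier, rose in kidney (1.27 (adjusted p = 5.69e-07)) and fell in liver by 0.73 (adjusted p = 5.2e-05). Slc14a1, a urea carrier, was higher in LPS_Genipin kidneys than in LPS kidneys (1.04 (adjusted p = 4.3e-05)). Slc17a3, a urate and anion carrier, was at the floor in LPS kidneys, at least 2.44-fold below Mock.

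Brain had the fewest carriers called after LPS. Among 22 amino acid and peptide carriers 6 were called higher and 3 lower with LPS, and among 15 neurotransmitter and vesicle carriers 2 higher and 4 lower, where 16.4% of all genes were higher and 17.5% lower. LPS_Genipin against LPS gave 6 higher and 1 lower in the transmitter group, against 16.3% and 13.8% of all genes. Slc17a6 (VGLUT2), which loads glutamate into synaptic vesicles of thalamus and brainstem, read 24496, 24315 and 22507 in LPS_Genipin and 6393, 7214 and 5688 in LPS, against 8848, 9178 and 9706 in Mock brains. LPS_Genipin brains were far above both groups, 1.89 (SE 0.088, adjusted p = 9.53e-06) against LPS and 1.36 (SE 0.088, adjusted p = 3.92e-05) against Mock, and LPS was below Mock (-0.53 (adjusted p = 0.00298)). Slc6a5, the glycine carrier of spinal cord and brainstem neurons, read 247, 239.8 and 221 in LPS_Genipin, 751, 787 and 769 in LPS and 435, 491 and 417 in Mock brains. All LPS_Genipin arrays were at the floor, at least 2.93-fold below LPS (adjusted p = 5e-06). Slc1a6 (EAAT4), the glutamate carrier of Purkinje cells, differed by 0.81 (adjusted p = 0.000803) for LPS against Mock and -1.22 (adjusted p = 0.000143) for LPS_Genipin against LPS. Slc6a11, a GABA carrier of astrocytes, was higher in LPS_Genipin than in LPS brains (0.99 (adjusted p = 0.000552)). These genes mark regions of the brain, and the labels do not say which region each array holds. Of 6 neuron markers 4 were measured, and 0 were called higher and 1 lower with LPS. The 1 called lower was Slc17a7 (-0.40 (adjusted p = 0.00784)), itself a member of the transmitter group. Another limit is that 1 of the 4 was saturated on all 9 brain arrays and cannot show a difference.

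Other brain carriers are read beside the marker sums given above. Slc26a4 (pendrin), an anion exchanger, read 855, 857 and 899 in LPS_Genipin, 609, 514 and 503 in LPS and 1254, 1272 and 1175 in Mock brains. LPS brains were lowest, at -1.19 (adjusted p = 2.63e-05) against Mock. Slc2a12, a glucose carrier, was high in LPS_Genipin brains alone, at 701, 711 and 776 in LPS_Genipin, 291, 298 and 272 in LPS and 370.1, 354 and 404 in Mock. Slc2a1, the glucose carrier of the blood-brain barrier, was not called with LPS (-0.18 (adjusted p = 0.274)) and was higher in LPS_Genipin than in LPS brains (0.59 (adjusted p = 0.00834)). Slc2a3, the neuronal glucose carrier, was called in neither comparison. Slc1a3, a glutamate carrier of astrocytes, was saturated on the LPS brain arrays, and Slc1a2 (GLT-1), the main astrocyte glutamate carrier, fell by 0.39 (adjusted p = 0.0469, and up to 0.143 without any 1 of the Mock arrays or of LPS replicates 2 and 3). Slc41a3 and Slc35e4 were the largest rises with LPS among members off the floor, at 0.98 (adjusted p = 3.04e-05) and 1.03 (adjusted p = 0.000635). The part of choroid plexus, muscle and microglial RNA in these results was not tested.

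Transport genes outside the Slc symbols were counted for comparison. Of the Slco organic anion carriers, 1 of 6 measured was called higher and 3 lower with LPS in brain, and 1 of 7 higher and 3 lower in liver, where 16.4% and 17.5% of all brain genes and 29.3% and 37.1% of all liver genes were called higher and lower. Slco2b1 fell in all 4 tissues, by 1.98 in heart, 1.68 in brain, 1.29 in kidney and 0.64 in liver on the log2 scale. It was higher in LPS_Genipin than in LPS arrays of brain (1.33 (adjusted p = 2.34e-05)), heart (1.35 (adjusted p = 2.14e-05)) and kidney (1.24 (adjusted p = 3.01e-05)), and not called in liver (-0.10 (adjusted p = 0.166)). Among sodium pump subunits and their Fxyd regulators, 1 of 4 in liver was called higher and 3 lower with LPS, while 0 of 5 in brain were called. The 4 in liver were Atp1b1, at -1.59 (adjusted p = 4.97e-08), Atp1b3, Fxyd1 and Fxyd2, with no alpha subunit measured. In heart Atp1b2 read 934, 873 and 941 in LPS and 1895, 1706 and 1814 in Mock arrays. Atp1b3 went the other way there, at 19310, 17652 and 19371 in LPS and 9941, 13076 and 14222 in Mock hearts.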

How the data were processed

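RNA of brain, heart, kidney and liver was measured on 1-colour arrays labelled with Cy5, 3 per treatment and tissue. The deposited table holds linear intensity values for 18183 probes on 36 arrays; the authors' normalization is not described in the labels, but the sorted values of a tissue's 9 arrays are nearly the same, as quantile normalization gives. The submitters' processing notes name limma without a version. Depth has no meaning here, and 3 arrays per group limit the precision.

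Values under 262.7 (5th percentile of the deposited intensities) were raised to that floor and log2 taken; values at or above 60000 were treated as saturated. Probes were named from the platform annotation, updated through RefSeq (14817 probes with a symbol; 23 members named through a synonym), and 1 probe per gene was kept. limma 3.58.1 in R 4.3.3 fitted the 9 arrays of each tissue with 3 group means, with Benjamini-Hochberg adjustment over all genes of the tissue; the F test used a fit of all 36 arrays over the 6697 genes measured everywhere. The fits were tested on simulated data. Genes were named by rule: per tissue the 8 called members with the largest rise and the 8 with the largest fall with LPS, the 5 and 5 with genipin after LPS, those called alike in all 4 tissues, the smallest F-test p-values and a list of well-known carriers. Not every gene that this rule named is described. Slc16a7 and Slc2a5 in brain, Slc26a10 in heart and Slc8a1 in kidney are among those left out. Slc25a13, Slc25a15 and Slc25a32 in liver, Slc35c2, and the genes outside the Slc symbols were named after their values were seen. The members, carrier groups and marker lists were chosen with earlier results of these data known. No clear pairing by replicate number was seen: deviations of same-numbered arrays of a tissue correlated at -0.521 to 0.292. With 3 arrays per group this cannot exclude a pairing.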

Additional observations from a re-analysis of the deposited data

Results flagged for a closer look

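By the F test of whether a difference varies between tissues, that of LPS against Mock varied for 97 of 115 members. LPS_Genipin against LPS gave 88, and LPS_Genipin against Mock gave 90. These shares are to be read beside the 77.0%, 74.5% and 66.2% of all genes.

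For LPS against Mock, the smallest adjusted p-values of that test belonged to the following members, with log2 differences given for brain, heart, kidney and liver in that order. Slc19a2 gave 0.10, 0.21, -0.07 and -2.00 (adjusted p = 8.47e-19), and Slc40a1 -1.62, -0.79, -0.16 and -3.12 (adjusted p = 1.1e-17). Slc6a8 gave 0.12, -0.54, -0.19 and 2.03 (adjusted p = 1.33e-17), higher in liver and lower in heart. Slc9a3r2 gave -0.15, -1.95, -1.69 and -1.85 (adjusted p = 1.78e-16), with LPS livers at the floor. Slc15a3 gave 1.02, 3.76, 4.29 and 2.57 (adjusted p = 3.47e-16), with Mock brains at the floor. Slc12a7 gave 0.02, -0.63, -0.25 and 1.06 (adjusted p = 5.32e-15), and in brain Mock arrays were at the floor. Slc25a22 gave -0.12, 0.23, 1.27 and -0.73 (adjusted p = 9.77e-15), higher in kidney and lower in liver. Slc20a1 gave 0.34, 0.22, 1.87 and 1.48 (adjusted p = 9.69e-14), and Slc46a3 0.61, -0.60, -0.17 and -1.80 (adjusted p = 1.58e-13), higher in brain and lower in heart and liver. Slc37a1 gave 0.03, 0.20, 0.49 and 2.14 (adjusted p = 2.09e-13), with Mock arrays of brain and kidney at the floor.

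For LPS_Genipin against LPS, in the same order of tissues, Slc19a2 gave 0.19, -0.10, 0.67 and 2.22 (adjusted p = 3.08e-18) and Slc6a6 0.13, 0.35, 0.34 and -1.74 (adjusted p = 9.69e-17). Slc40a1 gave 1.21, 0.28, 0.11 and 2.70 (adjusted p = 1.55e-16), Slc12a7 0.01, 0.54, -0.22 and -1.44 (adjusted p = 3.9e-16), and Slc9a3r2 -0.19, 1.30, 1.42 and 1.04 (adjusted p = 1.19e-14). Both comparisons use the same LPS arrays.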

How the results depend on the processing

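Of 329 called values of named genes, 4402 alternative values were computed: 4120 stayed called in the same direction, 281 lost the call and 1 reversed. Counted by value, 78 of the 329 lost the call under at least 1 alternative. Among values not called in the main fit, 65 were called under at least 1 alternative. The reversal was Slc7a2 in liver, LPS against Mock, which became 0.13 (adjusted p = 0.0544) with the mean of all probes. That mean includes its other probe, which moved opposite to the brighter one. Restricting brain to genes above the 25th percentile, which tests fewer genes, gave 41 called members for LPS against Mock, 37 for LPS_Genipin against LPS and 18 for LPS_Genipin against Mock. Array weights raised LPS_Genipin against Mock to 63 in brain and 68 in heart; the cause was not tested. A fit of all 36 arrays, which tests only genes measured everywhere, gave 38 and 34 in brain for LPS against Mock and LPS_Genipin against LPS, and 62, 50 and 43 in kidney for the 3 comparisons.

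Leaving out 1 array at a time, counts for LPS against Mock, LPS_Genipin against LPS and LPS_Genipin against Mock ranged over 42 to 76, 43 to 69 and 15 to 21 in brain. They ranged over 74 to 80, 72 to 85 and 23 to 35 in heart, 137 to 151, 112 to 124 and 103 to 117 in kidney, and 109 to 122, 85 to 103 and 103 to 111 in liver. The tissue test ranged over 83 to 89, 78 to 81 and 69 to 78. The brain count for LPS_Genipin against Mock was 15 without Mock replicate 1 or 3, 17 without Mock replicate 2 and 18 without LPS_Genipin replicate 2 or 3. The heart count was 26 without Mock replicate 2, 24 without LPS_Genipin replicate 1 and 23 without LPS_Genipin replicate 2.

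With the replicate block, the counts were 64, 64 and 25 in brain, 76, 76 and 30 in heart, 152, 122 and 118 in kidney, 115, 93 and 112 in liver, and 93, 85 and 88 for the tissue test. No clear pairing by replicate number was seen, so this fit is given for completeness. Signal under the floor and saturated spots limit what low and abundant carriers can show.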

Other observations

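Some liver carriers spread widely within a group. Slc16a6 in liver read 51.1, 424 and 4202 in LPS_Genipin, 3017, 2490 and 2224 in LPS and 461, 527 and 18.9 in Mock livers, so its LPS difference of 2.68 (SE 0.92, adjusted p = 0.0316) has a wide error; the call was lost without any 1 of the 6 arrays (adjusted p up to 0.0929) and with no floor. Slc4a8, a sodium-driven bicarbonate exchanger, read 5227, 3779 and 2213 in LPS_Genipin, 8821, 12071 and 16402 in LPS and 4905, 4309 and 5282 in Mock livers. Slc17a7 (VGLUT1), a neuronal vesicular glutamate carrier, was measured in liver at 258, 271 and 172 in LPS_Genipin, 992, 879 and 1434 in LPS and 750.3, 564 and 520.2 in Mock arrays.

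Other transport genes outside the Slc symbols also moved. Slco3a1 in liver read 1003, 1179 and 1128 in LPS_Genipin, 1602, 1569 and 1241 in LPS and 246, 219 and 245 in Mock livers, and all Mock livers were at the floor, so the LPS rise was at least 5.56-fold (adjusted p = 3.56e-07). Slco1a4, an organic anion carrier of the blood-brain barrier, read 637, 510.5 and 668 in LPS_Genipin, 272, 198 and 199 in LPS and 968, 644 and 982 in Mock brains, and all but 1 of the LPS brains lay under the floor of 262.7. Among members called with LPS that have another measured probe, the other probe had the opposite sign in 3 of 10 in brain, 3 of 5 in heart, 4 of 14 in kidney and 3 of 8 in liver.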
